A study of Mus musculus with 11 samples.

Results

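The genes described here are 9 products by which phagocytes drive or restrain inflammation: the interleukin-1 ligands Il1a and Il1b, their receptor antagonist Il1rn, the cytokines Tnf and Il6, the cytokine chains Il12b and Il23a, and the effectors Nos2 and Icam1. They were chosen by name from the 37583 genes of the deposited expression table, and all 9 were found there. The cells were EGFP+ CX3CR1+ mononuclear phagocytes, a family of macrophages, dendritic cells and monocytes, taken by 2 rounds of sorting from the epididymis of mice aged 12 weeks. Sperm mature in this duct as they pass from its initial segments (IS) through the caput/corpus to the cauda, which stores them. The initial segments gave 4 libraries, the caput/corpus 3 and the cauda 4, each from 4 epididymides pooled. All mice of the 3 groups carried the same genotype, CX3CR1 EGFP +/-, in which EGFP is made under the control of the CX3CR1 gene, and no group was treated. The sort therefore takes any cell in which this gene is active, and not a single type. The labels do not say which animals gave which library, so p-values measure the spread between libraries, which may be partly technical.

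Interleukin-1 alpha and beta bind the same receptor, and the antagonist made from Il1rn occupies that receptor without starting a signal. Tumour necrosis factor and interleukin-1 switch on the transcription factor NF-kB, which in turn raises the transcription of many cytokine genes and of Icam1, the adhesion molecule that holds leukocytes through their beta-2 integrins. Il12b encodes the p40 chain shared by interleukin-12 and interleukin-23, Il23a encodes the p19 chain of interleukin-23, and Nos2 encodes the inducible nitric oxide synthase of activated macrophages. In the epididymis, phagocytes lie close to an epithelium that carries sperm, which immune cells can recognise as foreign.

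The sequences before the starts of the 4 genes that differed between IS and cauda cells are shown first, because these genes did not all differ in the same direction. RefSeq promoters (build GRCm38.p6) were found for 7 of the 9 genes, with 3 starts for Il1rn, of which the first is shown. Each line gives the 250 bases before the start, 5′ to 3′ on the strand of the gene, and capitals mark matches on either strand to GGGNNNNNCC or GGAANTTCC, which are forms of the NF-kB site, or to TGANTCA, the AP-1 site. The Icam1 promoter lies at chr9:21015690-21015939 on the plus strand, that of Il12b at chr11:44399813-44400062 on the plus strand, that of Il1a at chr2:129309973-129310222 on the minus strand and that of Il1rn at chr2:24336610-24336859 on the plus strand.
Icam1: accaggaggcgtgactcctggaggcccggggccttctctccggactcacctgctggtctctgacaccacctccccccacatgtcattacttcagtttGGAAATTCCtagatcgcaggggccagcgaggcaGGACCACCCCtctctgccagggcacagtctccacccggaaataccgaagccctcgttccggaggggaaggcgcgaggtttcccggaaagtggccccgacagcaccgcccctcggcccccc
Il12b: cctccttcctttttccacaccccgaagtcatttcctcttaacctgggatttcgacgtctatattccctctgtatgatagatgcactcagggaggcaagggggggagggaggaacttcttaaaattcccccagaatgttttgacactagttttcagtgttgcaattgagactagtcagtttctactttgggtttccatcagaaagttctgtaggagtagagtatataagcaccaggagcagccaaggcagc
Il1a: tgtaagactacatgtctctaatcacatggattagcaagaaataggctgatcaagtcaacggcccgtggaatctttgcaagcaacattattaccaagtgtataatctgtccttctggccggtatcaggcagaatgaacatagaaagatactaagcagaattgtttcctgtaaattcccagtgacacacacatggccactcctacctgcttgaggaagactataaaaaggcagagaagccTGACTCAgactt
Il1rn: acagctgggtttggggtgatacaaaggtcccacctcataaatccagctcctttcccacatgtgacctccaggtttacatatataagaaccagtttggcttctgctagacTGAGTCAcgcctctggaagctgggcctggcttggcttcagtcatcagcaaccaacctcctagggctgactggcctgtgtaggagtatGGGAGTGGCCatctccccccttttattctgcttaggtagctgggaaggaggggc
The Icam1 promoter held both NF-kB forms, GGAANTTCC at bases -153 to -145 and GGGNNNNNCC at bases -120 to -111, counted back from the start. The Il1a promoter held an AP-1 match at bases -12 to -6. The Il1rn promoter shown held an AP-1 match at bases -141 to -135 and an NF-kB match at bases -54 to -45. Of the other Il1rn starts, that with bases chr2:24345041-24345290 held no NF-kB or AP-1 match. That with bases chr2:24345121-24345370 held an NF-kB match at bases -51 to -42 and no AP-1 match. Which start these cells use was not tested. The Il12b promoter held no NF-kB or AP-1 match, but 2 copies of GAGGAA, the core bound by the myeloid factor PU.1. That core is not capitalised here, and the Il1a promoter held 1 copy. Of 32851 RefSeq promoters searched over the same 250 bases, 45.8% held GGGNNNNNCC, 0.813% held GGAANTTCC, 6.75% held TGANTCA and 23.3% held GAGGAA. No 2 matches of different motifs overlapped in these 4 promoters. A match is a description of letters and does not show that a factor bound there.

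Levels are given as RPKM (reads scaled by gene length and library size), so that genes can be set beside each other. The libraries held 16873180 to 31737132 reads on genes. Cauda replicate 1 stood apart, with reads on 13434 genes, where each of the other 10 libraries had reads on 17053 to 18837. For 3 libraries (IS replicate 2, replicate 1 of caput/corpus and replicate 1 of cauda) the deposited count file and the named RPKM column held different reads. The values here follow the named columns, and values with the 8 undisputed libraries are given for each of the 7 tested genes and, as calls kept or lost, for the pathway lists. The sorted lineage was present in all regions: the 8 phagocyte markers summed to 9077 to 10620 CPM (reads scaled to a common library size) in IS, 6425 to 8745 in caput/corpus and 4633 to 6456 in cauda. Over all 11 libraries mean RPKM was 273 for Il1b, 46.0 for Icam1, 42.9 for Il1a and 31.1 for Tnf. It was 2.91 for Il1rn, 1.98 for Il6 and 1.01 for Il12b, while Il23a had 15 reads and Nos2 13 reads in all libraries together. The plot of the 9 genes by library shows these levels region by region.

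**Figure D1:**
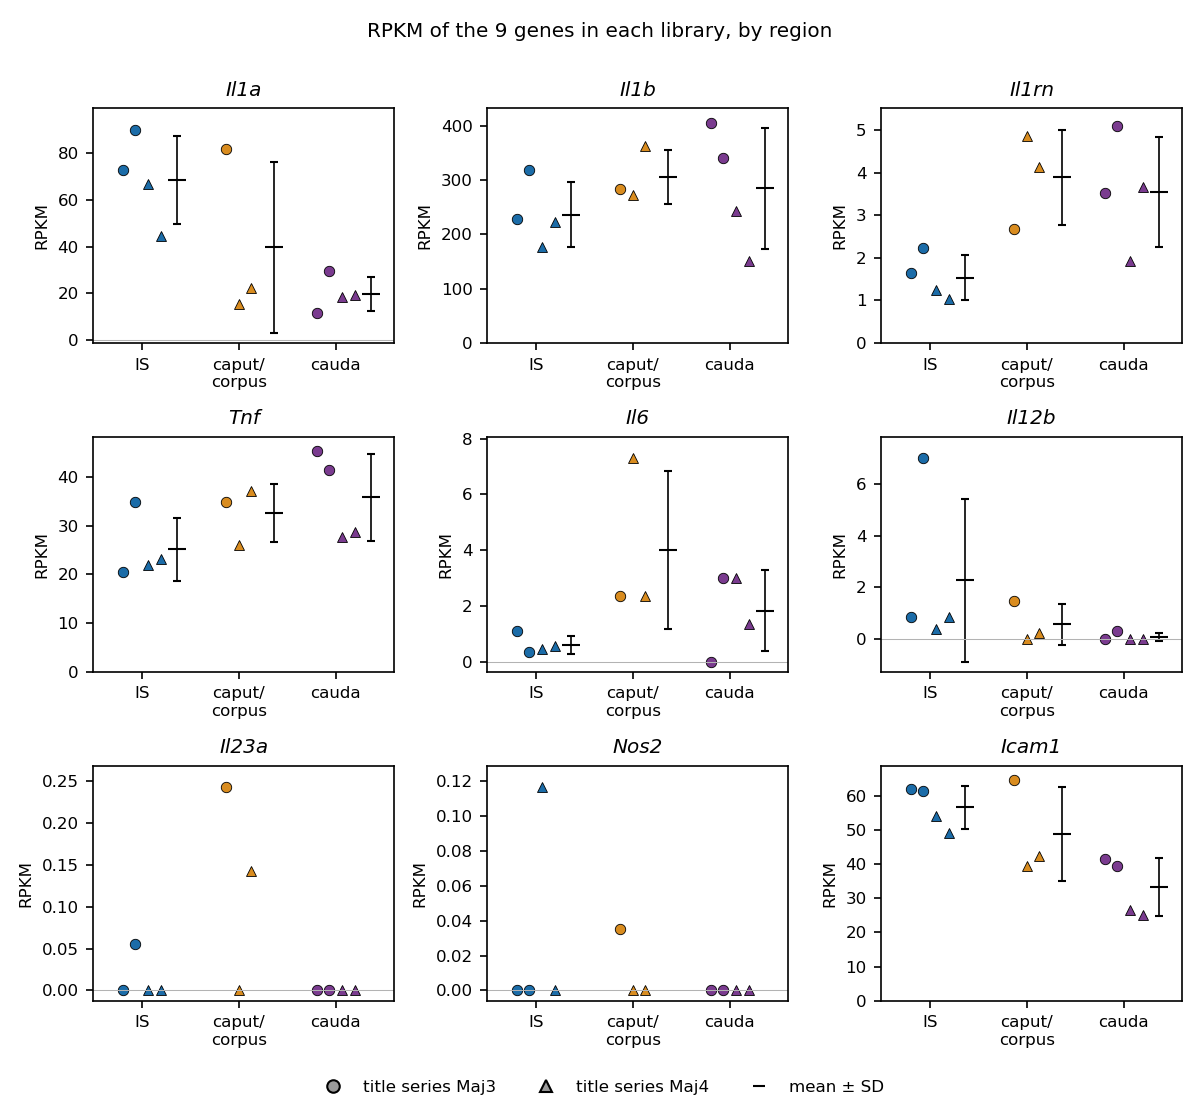
RPKM of each of the 9 genes (vertical axes, each with its own scale) in every library of IS, caput/corpus and cauda (horizontal axes). Circles are libraries of title series Maj3 and triangles those of Maj4, and bars give the mean ± SD of 4 IS, 3 caput/corpus and 4 cauda libraries, except for Il23a and Nos2, where most libraries had no read; Il1a and Icam1 in all 4 IS libraries lie above all 4 cauda libraries.

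A region difference was called at an adjusted p under 0.05 in the edgeR quasi-likelihood test of all 15116 genes that passed the filter on low counts, with Benjamini-Hochberg adjustment within each comparison. Of the 9 genes, 7 passed that filter, and Il23a and Nos2 did not. Between IS and cauda, 3 genes (Il1a, Il12b and Icam1) were higher in IS cells and 1 (Il1rn) was lower in IS cells, where 16.5% of all genes tested were called, 7.4% with the higher level in IS and 9.06% with the higher level in cauda. Between IS and caput/corpus none of the 7 was called by edgeR, where 3.78% of all genes were called, 0.794% with the higher level in IS and 2.98% with the higher level in caput/corpus. In that comparison 2 of the 7 had an unadjusted p under 0.05, as did 2282 of all 15116 genes tested. DESeq2 called 1 of the 7 there (Il1rn) and 1268 of all genes. Limma on log2(RPKM + 1) called 0 of the 7 and 934 of all genes. Between caput/corpus and cauda 1 of the 7 was called, Icam1, where 0.615% of all genes were called, 0.582% higher in caput/corpus and 0.0331% higher in cauda. The libraries of 2 regions lay fully apart for 2 of the 7 between IS and caput/corpus (Il1rn and Il6) and 3 between IS and cauda (Il1a, Il12b and Icam1), against 14.3% and 18.5% of all genes tested. They did so for 0 of the 7 between caput/corpus and cauda, against 9.57% of all genes. The median log2 fold change of the 7 was -0.46 for IS against caput/corpus, -0.24 for IS against cauda and 0.64 for caput/corpus against cauda, and over all genes tested it was 0.02, 0.05 and 0.02. The comparisons share libraries, so these counts are not independent of one another. The plot of fold changes gives the 3 comparisons side by side.

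**Figure D2:**
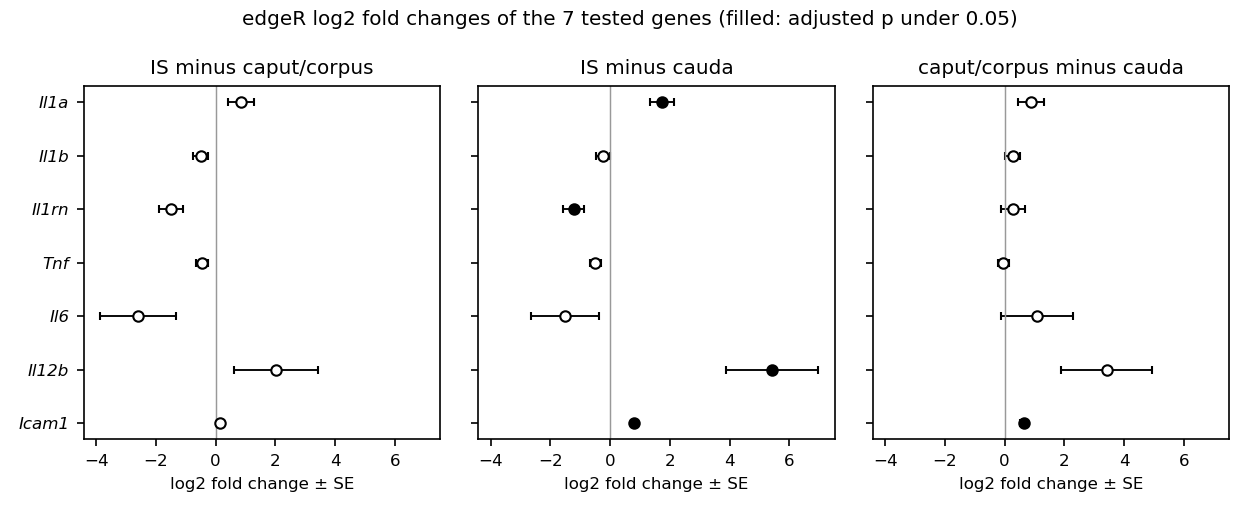
Log2 fold change of each of the 7 tested genes in the 3 comparisons between regions, as edgeR estimates with bars of ± SE; filled points passed an adjusted p of 0.05. Icam1 was called in 2 comparisons, Il1a, Il12b and Il1rn in 1 each, and Il12b and Il6 carry the widest bars.

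Il1a, an interleukin-1 ligand that cells hold in the cytoplasm and nucleus and release when they are damaged, was most abundant in IS cells. Il1a (ENSMUSG00000027399) stood at 72.7, 90.2, 66.9 and 44.5 RPKM in IS replicates 1 to 4, at 81.9, 15.2 and 22.0 in caput/corpus replicates 1 to 3, and at 11.5, 29.6, 18.2 and 19.4 in cauda replicates 1 to 4. Every IS library lay above every cauda library, and caput/corpus replicate 1 lay among the IS libraries while the other 2 lay among the cauda libraries. The mean ± SD was 68.6 ± 18.8 RPKM over the 4 IS libraries, 39.7 ± 36.7 over the 3 of caput/corpus and 19.7 ± 7.48 over the 4 of cauda. By the rank of its mean among the 15116 genes tested, Il1a was at place 711 in IS, 1430 in caput/corpus and 3045 in cauda. IS cells held 3.35 times the Il1a of cauda cells (edgeR log2 fold change 1.74 ± 0.40 SE, adjusted p = 0.0153), and this difference between bulk samples cannot tell fewer cells that make the transcript from less of it per cell. Without cauda replicate 1 the log2 fold change was 1.46 (edgeR adjusted p = 0.00985), with the 8 undisputed libraries it was 1.48 (adjusted p = 0.00186), and without IS replicate 3 the call was lost at 1.55 (adjusted p = 0.0561). Within the title series it was 2.03 in Maj3 (edgeR adjusted p = 0.240) and 1.57 in Maj4 (adjusted p = 0.0166). IS against caput/corpus gave 0.86 ± 0.43 (edgeR adjusted p = 0.410) and caput/corpus against cauda 0.88 ± 0.43 (adjusted p = 0.465). Caput/corpus replicate 1 decides those 2 values: without it they were 1.69 (edgeR adjusted p = 0.0617) and 0.09 (adjusted p = 1). With the 8 undisputed libraries, which leave that library out too, IS against caput/corpus was called for Il1a at 1.53 (edgeR adjusted p = 0.00991). Gm14023, a gene on the opposite strand that overlaps Il1a, had 4776 reads against 22941 for Il1a, with mean RPKM of 18.9 in IS, 9.54 in caput/corpus and 2.90 in cauda. Counting was not stranded, so strand does not separate this pair where they overlap. Reads that the counting marked as ambiguous were given to no gene.

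Il1b, the interleukin-1 ligand that caspase-1 processes before release, was the most abundant of the 9 genes in every library, and its regions overlapped. Il1b (ENSMUSG00000027398) stood at 228, 319, 177 and 223 RPKM in the IS libraries, at 284, 272 and 363 in the caput/corpus libraries, and at 406, 340, 244 and 151 in the cauda libraries. The cauda libraries spanned the widest range and held both the highest and the lowest value, with the 2 cauda libraries of Maj3 above the 2 of Maj4. The mean ± SD was 237 ± 59.6 RPKM over the 4 IS libraries, 306 ± 49.2 over the 3 of caput/corpus and 285 ± 111 over the 4 of cauda, and its rank among all genes tested was 141, 127 and 152 in that order. None of its 3 differences passed the edgeR test: the log2 fold change was -0.50 ± 0.25 for IS against caput/corpus (adjusted p = 0.406), -0.24 ± 0.23 for IS against cauda (adjusted p = 0.551) and 0.27 ± 0.26 for caput/corpus against cauda (adjusted p = 0.762). With the 8 undisputed libraries Il1b gave -0.77 (edgeR adjusted p = 0.116), -0.18 (adjusted p = 0.647) and 0.59 (adjusted p = 0.478) in the same comparisons. Il1bos, on the opposite strand and overlapping Il1b, had 1274 reads against 148036 for Il1b.

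Il1rn, the antagonist of the interleukin-1 receptor, was scarce in all regions and lowest in IS cells. Il1rn (ENSMUSG00000026981) stood at 1.64, 2.23, 1.25 and 1.03 RPKM in the IS libraries, at 2.69, 4.88 and 4.13 in the caput/corpus libraries, and at 3.53, 5.09, 1.94 and 3.66 in the cauda libraries. All IS libraries lay below all caput/corpus libraries, whereas IS replicate 2 lay above cauda replicate 3. The mean ± SD was 1.54 ± 0.52 RPKM over the 4 IS libraries, 3.90 ± 1.11 over the 3 of caput/corpus and 3.55 ± 1.29 over the 4 of cauda. IS against cauda gave a log2 fold change of -1.22 ± 0.36 (edgeR adjusted p = 0.0456), which is a level 2.33 times higher in cauda. This call stands close to the threshold: leaving out 1 library gave -1.40 to -1.06, and the call was kept in 3 of 11 such fits. It was lost without any 1 of IS replicates 1 to 4, caput/corpus replicates 2 and 3, or cauda replicates 2 and 4, with edgeR adjusted p up to 0.125. Within the title series the log2 fold change of Il1rn was -1.11 in Maj3 (edgeR adjusted p = 0.534) and -1.29 in Maj4 (adjusted p = 0.109), and with the 8 undisputed libraries it was -1.41 (adjusted p = 0.0148). IS against caput/corpus gave -1.49 ± 0.41 (edgeR adjusted p = 0.0791), and it was called without cauda replicate 1 (-1.50, adjusted p = 0.0340), without caput/corpus replicate 1 (-1.95, adjusted p = 0.0385) and with the 8 undisputed libraries (-2.05, adjusted p = 0.0133). Caput/corpus against cauda gave 0.27 ± 0.40 (edgeR adjusted p = 0.876), so the order of those 2 regions was not resolved.

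Set against each other in the same library, the ligands and the antagonist gave ratios that differed most between IS and the rest. The ratio of Il1b to Il1rn in RPKM was 139, 143, 142 and 216 in the IS libraries, 106, 55.8 and 87.7 in the caput/corpus libraries, and 115, 66.8, 126 and 41.3 in the cauda libraries. Every IS library lay above all 7 others. The ratio of Il1b to Il1a was 3.14, 3.54, 2.64 and 5.00 in the IS libraries, 3.47, 17.9 and 16.5 in the caput/corpus libraries, and 35.4, 11.5, 13.4 and 7.81 in the cauda libraries. All 4 IS libraries lay below all 4 cauda libraries in this ratio, and caput/corpus replicate 1 again lay among the IS libraries. These ratios are descriptions and were not tested, and they follow from the values already given.

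**Figure D3:**
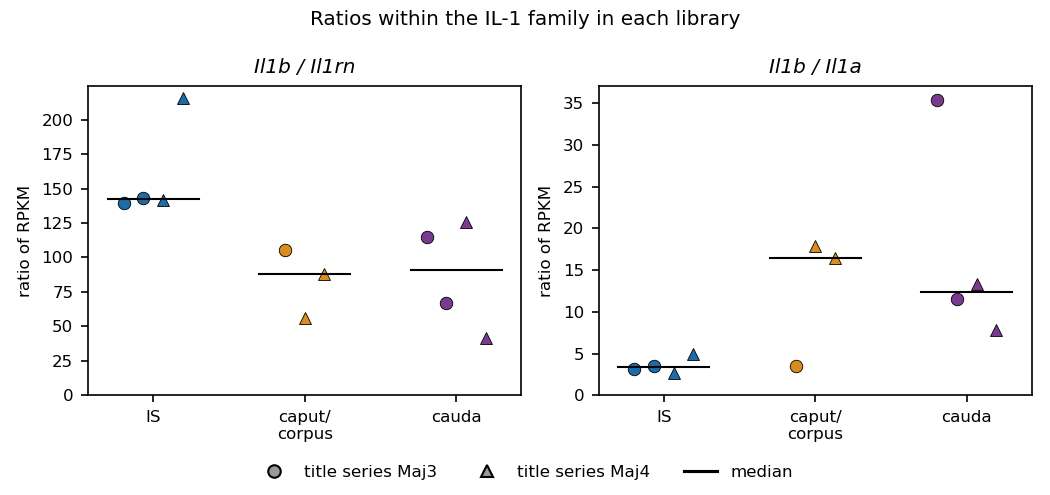
Ratio of Il1b to Il1rn (left) and of Il1b to Il1a (right), each a ratio of RPKM on a linear vertical axis, in every library of IS, caput/corpus and cauda. Horizontal bars are medians, 143, 87.7 and 91.0 on the left and 3.34, 16.5 and 12.4 on the right; circles are libraries of Maj3 and triangles of Maj4.

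Tnf, which encodes tumour necrosis factor, was abundant in all regions and its differences did not pass the test. Tnf (ENSMUSG00000024401) stood at 20.6, 34.8, 22.0 and 23.1 RPKM in the IS libraries, at 34.9, 26.0 and 37.2 in the caput/corpus libraries, and at 45.4, 41.5, 27.7 and 28.8 in the cauda libraries. IS replicate 2 lay among the libraries of the other regions, and the other 3 IS libraries were the lowest of all 11. The mean ± SD was 25.1 ± 6.54 RPKM over the 4 IS libraries, 32.7 ± 5.93 over the 3 of caput/corpus and 35.8 ± 8.95 over the 4 of cauda. IS against cauda gave a log2 fold change of -0.50 ± 0.18 (edgeR adjusted p = 0.0886) and IS against caput/corpus -0.46 ± 0.19 (adjusted p = 0.295), while caput/corpus against cauda gave -0.04 ± 0.20 (adjusted p = 0.968). With the 8 undisputed libraries Tnf gave -0.55 for IS against cauda (edgeR adjusted p = 0.0837), -0.60 for IS against caput/corpus (adjusted p = 0.143) and 0.048 for caput/corpus against cauda (adjusted p = 0.975).

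Il6, a cytokine of the acute phase response, had few reads, and its highest value was in caput/corpus. Il6 (ENSMUSG00000025746) stood at 1.08, 0.35, 0.45 and 0.56 RPKM in the IS libraries, at 2.37, 7.29 and 2.37 in the caput/corpus libraries, and at 0, 3.01, 2.99 and 1.33 in the cauda libraries. All caput/corpus libraries lay above all IS libraries, and so did the cauda libraries other than replicate 1, which had no read where 3 reads would be 0.0973 RPKM. The mean ± SD was 0.61 ± 0.33 RPKM over the 4 IS libraries, 4.01 ± 2.84 over the 3 of caput/corpus and 1.83 ± 1.45 over the 4 of cauda. None of its differences was called by edgeR: the log2 fold change was -2.60 ± 1.27 for IS against caput/corpus (adjusted p = 0.390), -1.53 ± 1.14 for IS against cauda (adjusted p = 0.424) and 1.08 ± 1.20 for caput/corpus against cauda (adjusted p = 0.803). For IS against caput/corpus, leaving out cauda replicate 1 gave a like fold, -2.74, that was called (edgeR adjusted p = 0.0321), as did the 8 undisputed libraries (-3.13, adjusted p = 0.0469). Fits of the 2 regions alone (-2.67, edgeR adjusted p = 0.0742) and of Maj4 alone (-3.25, adjusted p = 0.104), which do not hold that library either, did not call it. Without that library IS against cauda was -2.0 (edgeR adjusted p = 0.0501).

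Il12b, the chain shared by interleukin-12 and interleukin-23, had reads in every IS library and in 1 of 4 cauda libraries. Il12b (ENSMUSG00000004296) had 49, 372, 15 and 39 reads in the IS libraries, 81, 0 and 9 in the caput/corpus libraries, and 0, 18, 0 and 0 in the cauda libraries. In RPKM these were 0.86, 7.00, 0.40 and 0.83 in the IS libraries, 1.47, 0 and 0.22 in the caput/corpus libraries, and 0, 0.31, 0 and 0 in the cauda libraries. The lowest IS library lay above the highest cauda library, and IS replicate 2 lay above all others. In the cauda and caput/corpus libraries with no read, 3 reads would have been 0.0523 to 0.0859 RPKM. IS against cauda gave a log2 fold change of 5.43 ± 1.54 (edgeR adjusted p = 0.0374), a size that depends on 18 reads in the cauda libraries. With no filter on low counts it was 5.43 (edgeR adjusted p = 0.0241). The cutoff of that filter, 0.444 CPM in at least 3 libraries, was reached by Il12b in 4 IS, 2 caput/corpus and 1 cauda libraries. Leaving out 1 library gave 4.72 to 6.08 in the 10 fits that kept the cauda library with reads, and the call was kept in 5 of all 11 fits. In the fit without cauda replicate 2 every cauda library was at 0, so its fold is not given. The call was lost without any 1 of IS replicates 2, 3 and 4, caput/corpus replicate 1 or cauda replicates 3 and 4, with edgeR adjusted p up to 0.127, the value without IS replicate 2. With the 8 undisputed libraries it was 4.42 (edgeR adjusted p = 0.166), and within Maj3 it was 4.70 (adjusted p = 0.518). In Maj4, where both cauda libraries were at 0 and no fold is given, it was not called either (edgeR adjusted p = 0.145). IS against caput/corpus gave 2.02 ± 1.42 (edgeR adjusted p = 0.623) and caput/corpus against cauda 3.41 ± 1.51 (adjusted p = 0.415).

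Il23a and Nos2 were at the limit of detection, and neither was tested. Il23a (ENSMUSG00000025383), the p19 chain that pairs with p40, had 2 reads in IS replicate 2, 9 in caput/corpus replicate 1 and 4 in caput/corpus replicate 3, and none in the other libraries. In the 4 cauda libraries 3 reads would have been 0.0758 to 0.128 RPKM. Nos2 (ENSMUSG00000020826) had 9 reads in IS replicate 3 and 4 in caput/corpus replicate 1, and none in the other libraries, where 3 reads would have been 0.0247 to 0.0416 RPKM in the cauda. A difference between regions was not detectable for either gene at this depth. Il12a, the p35 chain that pairs with p40 to make interleukin-12, had no read in IS and averaged 0.57 ± 0.34 RPKM in caput/corpus (SD, n = 3) and 0.14 ± 0.17 in cauda (n = 4), and edgeR called neither difference from IS (adjusted p = 0.143 against caput/corpus and 0.133 against cauda). It was singled out as the partner of Il12b after its values had been seen.

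Icam1, the adhesion molecule, was higher in IS than in cauda cells, and this call was the one that least depended on a single library. Icam1 (ENSMUSG00000037405) stood at 62.2, 61.6, 54.0 and 49.1 RPKM in the IS libraries, at 64.7, 39.5 and 42.3 in the caput/corpus libraries, and at 41.5, 39.5, 26.6 and 25.2 in the cauda libraries. All IS libraries lay above all cauda libraries, and caput/corpus replicate 1 lay above the IS libraries while the other 2 reached down to the cauda libraries. The mean ± SD was 56.7 ± 6.29 RPKM over the 4 IS libraries, 48.8 ± 13.8 over the 3 of caput/corpus and 33.2 ± 8.50 over the 4 of cauda. IS cells held 1.74 times the Icam1 of cauda cells (log2 fold change 0.80 ± 0.11, edgeR adjusted p = 0.000744). Icam1 kept this call in all 11 fits that left out 1 library, at 0.73 to 0.85 with edgeR adjusted p up to 0.00435, and with the 8 undisputed libraries (0.88, adjusted p = 0.00206). Within the title series the log2 fold change was 0.66 in Maj3 (edgeR adjusted p = 0.172) and 1.00 in Maj4 (adjusted p = 0.0122). Caput/corpus against cauda gave 0.64 ± 0.11 (edgeR adjusted p = 0.0382), but this call was kept in 2 of 11 fits without 1 library, those without cauda replicate 1 (0.68) and without IS replicate 3 (0.65). Without caput/corpus replicate 1 it was 0.56 (edgeR adjusted p = 0.308), and with the 8 undisputed libraries 0.61 (adjusted p = 0.171). IS against caput/corpus gave 0.16 ± 0.11 (edgeR adjusted p = 0.642). Gm47079, on the opposite strand and overlapping Icam1, was not among the genes of the table, so reads from it could have been counted as Icam1.

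**Figure D4:**
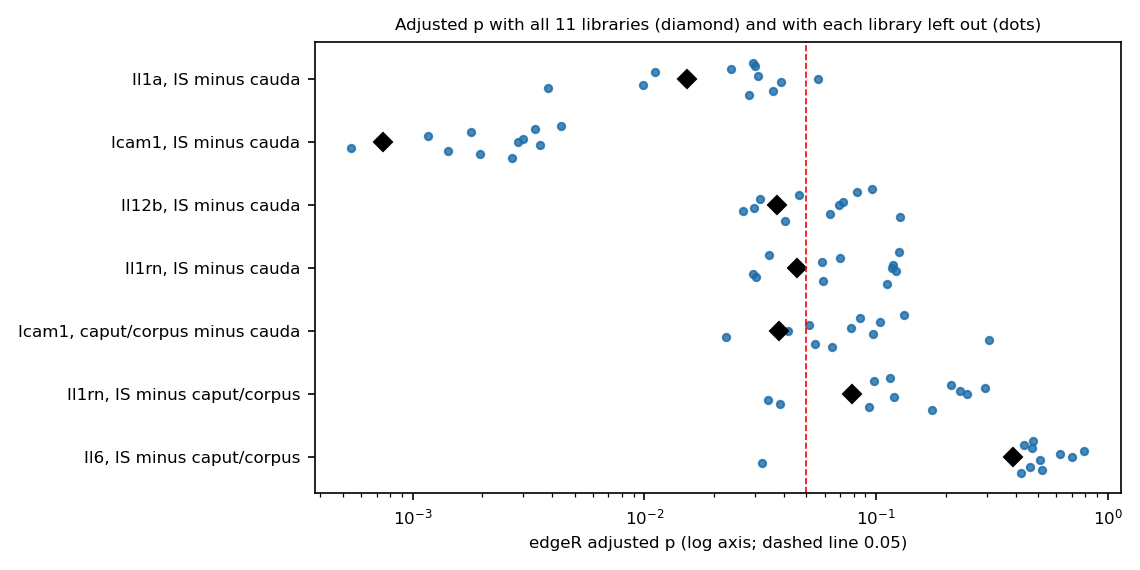
Adjusted p from edgeR (horizontal log axis, dashed line at 0.05) for the 7 differences that were called with all 11 libraries (black diamonds) or without 1 of them (blue dots, 11 per row). Icam1 for IS minus cauda lay left of the line in all 11 fits, at up to 0.00435, Il1a for IS minus cauda in 10 of 11, and the other 5 rows have dots on both sides.

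Around these genes, 7 lists of 92 genes from the same pathways were described, of which 91 were in the table and 86 passed the filter. Between IS and cauda 6 of the 86 were higher in IS and 23 lower in IS, which together is 33.7% against 16.5% of all genes tested. Between IS and caput/corpus 0 were higher in IS and 6 lower in IS, which is 6.98% against 3.78% of all genes. At an unadjusted p under 0.05 there were 29 of the 86 in that comparison, and 2282 of all 15116 genes tested. DESeq2 called 5 higher and 14 lower in IS, against 466 and 802 of all genes. Limma on log2(RPKM + 1) called 2 higher and 11 lower in IS, against 320 and 614 of all genes. Between caput/corpus and cauda edgeR called 0 of 86, against 0.615% of all genes. At an unadjusted p under 0.05 there were 10 of the 86, and 1772 of all 15116 genes tested. DESeq2 called 4 higher and 1 lower in caput/corpus, against 514 and 118 of all genes. Limma called 1 higher and 0 lower, against 127 and 16 of all genes. Without cauda replicate 1 edgeR called 6 of the 86 higher and 22 lower in IS than in cauda, against 1492 and 1632 of all genes. Compared with caput/corpus, 4 were higher and 13 lower in IS, against 499 and 854 of all genes. With the 8 undisputed libraries these were 6 and 18 against cauda, and 3 and 9 against caput/corpus. Over all genes they were 1165 and 1244 against cauda, and 373 and 581 against caput/corpus. Of the list genes called with all 11 libraries, 23 kept their call against cauda and 5 against caput/corpus with these 8. Myd88, Irf5, Asl, Rel, Ikbkb and Nfkbiz lost theirs against cauda and Ltb against caput/corpus. The lists overlap in function and share regulation, so their members are not independent.

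In the interleukin-1 list, 1 of 16 tested genes was higher and 3 were lower in IS than in cauda, with a median log2 fold change of -0.23. Il18bp, the soluble protein that binds and blocks interleukin-18, averaged 42.1 ± 13.4 RPKM in IS and 8.79 ± 1.53 in cauda (SD, n = 4 each; log2 2.18 ± 0.25, edgeR adjusted p = 0.000363). Sigirr, a receptor that damps interleukin-1 family signals, averaged 7.24 ± 1.26 RPKM in IS and 20.5 ± 2.45 in cauda (log2 -1.51, edgeR adjusted p = 0.000502), and it was also lower in IS than in caput/corpus, where it averaged 15.3 ± 2.47 (n = 3; log2 -1.08, adjusted p = 0.0137). Il1rl1, the receptor of interleukin-33, which mast cells also carry, averaged 3.51 ± 2.92 RPKM in IS and 11.8 ± 3.58 in cauda (log2 -1.96, edgeR adjusted p = 0.00278). Myd88, the adaptor of the interleukin-1 receptor, was lower in IS by a smaller step (log2 -0.40, edgeR adjusted p = 0.0337), a call kept in 3 of 11 fits without 1 library. Casp1, which cleaves the Il1b product, averaged 92.5 ± 30.0 RPKM in IS, 98.1 ± 18.8 in caput/corpus and 112 ± 31.2 in cauda, and was not called; it was named for its role.

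In the tumour necrosis factor list, 2 of 14 tested genes were higher and 2 lower in IS than in cauda, with a median of -0.10. Adam17, the protease that sheds the membrane-bound factor, averaged 30.0 ± 3.04 RPKM in IS and 21.1 ± 3.01 in cauda (SD, n = 4 each; log2 0.51, edgeR adjusted p = 0.00679). Cflar, an inhibitor of death receptor signalling, was also higher in IS (log2 0.65, edgeR adjusted p = 0.0114). Traf1, a signalling adaptor that NF-kB induces, was lower in IS at 7.25 ± 1.39 RPKM against 20.9 ± 6.70 in cauda (log2 -1.52, edgeR adjusted p = 0.00118) and against 17.4 ± 1.92 in caput/corpus (n = 3; log2 -1.29, adjusted p = 0.0135). Zfp36, the protein that destabilises Tnf and other cytokine transcripts, was lower in IS than in cauda (log2 -0.70, edgeR adjusted p = 0.0329) and caput/corpus (log2 -0.88, adjusted p = 0.0472), in calls kept in 5 and 4 of 11 fits without 1 library. Ltb, which encodes lymphotoxin beta, was lower in IS than in caput/corpus (log2 -1.16, edgeR adjusted p = 0.0460), a call kept in 1 of 11 such fits. The receptors Tnfrsf1a and Tnfrsf1b, named for their role, were not called in any comparison: Tnfrsf1a averaged 87.5 RPKM in IS, 101 in caput/corpus and 93.7 in cauda, and Tnfrsf1b 93.4, 103 and 95.5 in that order.

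In the interleukin-6 list, 0 of 10 tested genes were higher and 3 lower in IS than in cauda, with a median of -0.35. At an unadjusted p under 0.05 there were 5 of these 10, and 4487 of all 15116 genes tested. Il6st, the shared signal-transducing chain gp130, averaged 15.1 ± 6.03 RPKM in IS and 30.2 ± 7.80 in cauda (SD, n = 4 each; log2 -1.07, edgeR adjusted p = 0.0141). Jak2, the kinase attached to such receptors, had a log2 fold change of -0.82 (edgeR adjusted p = 0.0198, kept in 6 of 11 fits without 1 library), and Lif, a cytokine of the same family, one of -3.97 (adjusted p = 0.0418, kept in 3 of 11) at means of 0.05 and 0.72 RPKM in IS and cauda. In the interleukin-12 and interleukin-23 list, 0 of 10 were higher and 4 lower in IS than in cauda, with a median of -0.15. Batf3, a transcription factor needed for a class of dendritic cells, averaged 58.3 ± 5.24 RPKM in IS, 100 ± 21.2 in caput/corpus and 118 ± 14.6 in cauda, and was lower in IS in both comparisons (log2 -0.82, edgeR adjusted p = 0.0185, and log2 -1.02, adjusted p = 0.00115). Il12rb2, a chain of the interleukin-12 receptor, had a log2 fold change of -2.10 (edgeR adjusted p = 0.00468), Stat4, which carries its signal, -1.22 (adjusted p = 0.0127), and Irf5, which activates Il12b and other cytokine genes, -0.46 (adjusted p = 0.0201). Il12b itself was called higher in IS than in cauda, a call kept in 5 of 11 fits without 1 library. It was not called with the 8 undisputed libraries. No tested gene of its list was called higher in IS than in cauda.

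In the nitric oxide and arginine list, 2 of 11 tested genes were higher and 2 lower in IS than in cauda, with a median of 0.43. Irf1, an interferon-induced factor that activates Nos2, had a log2 fold change of 0.49 (edgeR adjusted p = 0.00851), and Ncf1, a subunit of the phagocyte oxidase, 0.48 (adjusted p = 0.0204). Gch1, which makes the cofactor of nitric oxide synthases, had one of -0.73 (edgeR adjusted p = 0.00879), and Asl, which makes arginine, -0.45 (adjusted p = 0.0378, kept in 3 of 11 fits without 1 library). Among ligands and relatives of Icam1, 1 of 10 was higher and 3 lower in IS than in cauda, with a median of -0.38. Vcam1, another adhesion molecule, averaged 41.4 ± 8.99 RPKM in IS and 2.71 ± 1.57 in cauda (SD, n = 4 each; log2 3.99 ± 0.48, edgeR adjusted p = 0.000465). Itgb2, the beta-2 chain of the integrins that bind the Icam1 product, averaged 199 ± 11.8 RPKM in IS and 289 ± 36.9 in cauda (log2 -0.54, edgeR adjusted p = 0.00271), which is the opposite direction to Icam1. Itga4, a chain of the integrin that binds the Vcam1 product, had a log2 fold change of -0.85 (edgeR adjusted p = 0.0142), and Ezr, which links membrane proteins to actin, -0.52 (adjusted p = 0.0160).

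In the NF-kB list, 0 of 15 genes were higher and 6 lower in IS than in cauda, with a median of -0.36. At an unadjusted p under 0.05 there were 9 of these 15, and 4487 of all 15116 genes tested. The lists for interleukin-1, tumour necrosis factor and interleukin-12 with interleukin-23 had 5 of 16, 6 of 14 and 5 of 10. Those for nitric oxide and for Icam1 had 6 of 11 and 4 of 10. Tnfaip3, the enzyme A20 that limits NF-kB and is induced by it, averaged 10.7 ± 3.70 RPKM in IS, 29.3 ± 4.50 in caput/corpus and 34.0 ± 11.0 in cauda, and was lower in IS than in caput/corpus (log2 -1.55, edgeR adjusted p = 0.0184) and cauda (log2 -1.67, adjusted p = 0.00254). Nfkbia, the inhibitor that NF-kB also induces, averaged 200 ± 62.1 RPKM in IS and 449 ± 261 in cauda (log2 -1.09, edgeR adjusted p = 0.0115). Nfkb1, a subunit of the factor, had a log2 fold change of -0.71 (edgeR adjusted p = 0.00914), and Ikbkb, a kinase that releases the factor, -0.40 (adjusted p = 0.0297, kept in 5 of 11 fits without 1 library). The other 2 called genes were Rel (log2 -0.93, edgeR adjusted p = 0.0328), a subunit, and Nfkbiz (log2 -0.90, adjusted p = 0.0450). Nfkbiz encodes an atypical member of the inhibitor family. In the comparison of IS with cauda, Icam1 and Il1a were called higher in IS and these 6 genes lower. Whether they were opposed from library to library was not tested. Among the calls of list genes against caput/corpus, that of Sigirr was kept in 10 of 11 fits without 1 library, that of Batf3 in 9, that of Traf1 in 8 and that of Tnfaip3 in 6. Against cauda the call of Il6st was kept in 10, that of Irf5 in 9, those of Ncf1 and Ezr in 8 of 11, that of Rel in 4 and that of Nfkbiz in 3, and the others given without such a count were kept in all 11.

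Several lists of markers of other cells and of cell handling differed between the regions, and their part in the results was not tested. The 11 immediate early and heat shock genes, which can respond to tissue dissociation, summed to 5065 to 11798 CPM in IS, 12988 to 19454 in caput/corpus and 7958 to 22060 in cauda, and 9 of 11 were called lower in IS against caput/corpus and 9 against cauda. The 9 mast cell and basophil markers summed to 42.4 to 122 CPM in IS, 777 to 1125 in caput/corpus and 1125 to 4227 in cauda, and 8 and 9 of them were lower in IS than in caput/corpus and cauda. The 5 monocyte markers summed to 482 to 1221 CPM in IS, 1662 to 2430 in caput/corpus and 2547 to 3785 in cauda. The 6 dendritic cell markers summed to 278 to 531, 1129 to 1587 and 983 to 2172 in the same order. In each list 3 genes were lower in IS than in caput/corpus and 4 lower than in cauda. Most of the monocyte sum was Ccr2 and most of the dendritic sum Cd209a. Clec9a, of the dendritic list, overlapped between regions, at 10.7 to 22.9, 15.8 to 22.0 and 7.48 to 24.9 CPM. Markers of the epididymal epithelium ran the other way. They summed to 1090 to 2626 CPM in IS, 319 to 624 in caput/corpus and 17.2 to 52.5 in cauda. Of the 12, 5 were higher and 1 lower in IS than in caput/corpus, and 9 were higher in IS than in cauda. Most of the IS sum was Gpx5, Lcn9, Lcn8 and Rnase10. Lcn5 went against the sum, at 0.864 to 1.78 CPM in IS and 46.5 to 100 in caput/corpus. Whether the sum follows the amount of epithelium was not tested. The 10 stroma and endothelium markers summed to 38.9 to 449 CPM in IS, 60.1 to 408 in caput/corpus and 16.7 to 86.7 in cauda. Of these, 0 were called for IS against caput/corpus and 1 was higher in IS than in cauda. The highest epithelial and stromal sums were both in IS replicate 2, the library with the most Il12b. The 7 neutrophil markers summed to 146 to 208, 83.6 to 125 and 50.9 to 71.7 CPM in the same order, nearly all of it Csf3r, while S100a9 and Ly6g had no read in any library. The 9 lymphocyte markers summed to 28.4 to 87.3, 64.8 to 102 and 2.39 to 40.3 CPM. Of the 7 tested, 0 were called for IS against caput/corpus and 1 was higher in IS than in cauda. Among the 8 phagocyte markers, 2 were higher in IS than in caput/corpus, and 6 were higher and 1 lower in IS than in cauda. Most of their sum was Csf1r and C1qa, and Ptprc ran the other way, at 595 to 761 CPM in IS and 744 to 930 in cauda.

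The genes whose levels followed each of the 7 tested genes most closely were found by Pearson's r of log2(CPM + 1) over the 11 libraries, among tested genes with a mean of at least 10 CPM. The libraries share regions, so these values describe likeness across regions as much as within them. Each is among the 3 highest of 9053 or 9054 genes compared, so high values can come from the search itself. Il1a was most like B3galnt1 (r = 0.97), Ppox (0.96) and Trpv4 (0.96), and Icam1 was most like Ifi27l1 (0.97), 0610040J01Rik (0.96) and AW112010 (0.95). Il1b was most like Ptgs2 (r = 0.87), the inducible cyclooxygenase, Ccl4 (0.84), a chemokine, and Zfp36 (0.84), while Tnf was most like Cacnb3 (0.91), Mob3a (0.91) and Ccdc69 (0.89). Il1rn was most like Irf2 (r = 0.92), Gyg (0.92) and Srd5a3 (0.91). Il6 was most like Birc3 (r = 0.97), Orai1 (0.93) and Mmp9 (0.91), and Il12b was most like Aldh6a1 (0.92), Tlr2 (0.91) and Spint2 (0.91). Without cauda replicate 1 these 21 values lay between 0.80 and 0.98. They were not recomputed without IS replicate 2, the library with the most Il12b.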

How the data were processed

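RNA was sequenced from 11 libraries of sorted cells. Per the labels' protocols, the kits were PicoRNA for extraction and SMARTer v4 for the libraries, and the instrument was a HiSeq2500. The submitters' processing notes name STAR, HTSeq, edgeR and the build mm9, and settings are not given in the sources used here. The deposited count files hold raw read counts per gene, 1 file per sample, and their names state that counting ignored strand. The deposited RPKM table, made by the authors, scales reads by gene length and effective library size.

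RPKM times gene length was a whole number of reads times 1 constant per column, within 0.001, for all 37583 genes in all 11 columns, so whole reads were recovered from the column named for each sample. For 8 of 11 samples they equalled that sample's count file. The file of IS replicate 2 matched none of the columns, that of caput/corpus replicate 1 held the reads of the IS replicate 2 column, and that of cauda replicate 1 held the reads of the caput/corpus replicate 1 column. The numbers in the file names matched those in the column names and labels, and 10 of 11 columns equalled some count file. In the column named for IS replicate 2 the epithelial marker Lcn8 stood at 361 CPM. The undisputed libraries held 169 to 272 in IS and 1.68 and 13.6 in caput/corpus. In the column named for caput/corpus replicate 1 Lcn5 stood at 52.4 CPM. The undisputed libraries held 46.5 and 100 in caput/corpus and 0.0343 to 0.0875 in cauda. Both genes were picked with values known, and the assignment was not tested. Rows of the count files that name no gene were left out. In the files of Maj3 7.75% to 11.3% of reads fell on no gene and 27.6% to 35.8% were not unique. In those of Maj4 these shares were 18.6% to 24.8% and 12.5% to 14.7%. Ambiguous reads made up 1.74% to 2.12% over all files.

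Recovered reads were tested with edgeR 4.0.16 in R 4.3.3 (TMM, filterByExpr by region, quasi-likelihood test, title series as covariate, all 11 libraries in 1 fit). A count test was used because the columns gave whole reads; limma 3.58.1 on log2(RPKM + 1) was run beside it, as were DESeq2 1.42.0 and 23 alternatives in all, 11 of them leaving out 1 library. SEs come from the F statistic. The limit for a gene with no read was set at 3 reads and covers counting error only. The members and lists were chosen with earlier results of these data known, and the motifs with the sequences in view. All 9 genes were named, list genes where called (up to 4 per list by smallest p, others named for their role after their values were seen), and the 3 most alike genes by r.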

Additional observations from a re-analysis of the deposited data

Results flagged for a closer look

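Among 16 groups of 4 libraries checked for a value far from the rest, 4 were marked. Chance marks about 1 in 20 groups of continuous values, but in 3 of the 4 (Il12b in cauda, Il23a in IS and Nos2 in IS) the other libraries had no read, so that any read marks the group and that rate does not apply. Il12b in IS replicate 2 stood at 7.00 RPKM, against 0.40 to 0.86 in the other IS libraries, and without that library the difference from cauda was 5.16 on the log2 scale (edgeR adjusted p = 0.127). In cauda replicate 2 Il12b stood at 0.306 RPKM, against 0 in the other cauda libraries. Without it the call for IS against cauda was kept (edgeR adjusted p = 0.0298), and no fold is given against a group at 0. Il23a in IS replicate 2 stood at 0.0559 RPKM, which is 2 reads, and Nos2 in IS replicate 3 at 0.117 RPKM, which is 9 reads, where the other IS libraries had none.

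The deposited count file under IS replicate 2, which equalled no column and enters no comparison here apart from the alternative with the counts as filed, held 30383072 reads. It had 1669 CPM of Il1b, 715 of Tnf, 203 of Il1a, 190.1 of Icam1, 25.1 of Il1rn, 8.92 of Il6, 6.09 of Il12b, 0.757 of Il23a and 0.230 of Nos2. The 11 immediate early and heat shock genes summed to 66623 CPM in it, against 5065 to 22060 in the 11 columns. Which cells it came from was not settled, and no group is assigned to it here.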

How the results depend on the processing

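The counts of genes called, the 7 tested genes and up to 4 called genes per list and comparison were recomputed under 12 other settings and without each of the 11 libraries. The ratios, marker sums and remaining list values were not, beyond what is given beside them. Between IS and cauda 2488 genes and 4 of the 9 were called. This became 1481 genes and 2 of the 9 with no title series in the model, 4 genes and 0 of the 9 with the count files as filed, 1144 genes and 2 of the 9 with Maj4 alone, and 30 genes and 0 of the 9 with Maj3 alone. Leaving out 1 library gave 1641 to 3124 genes and 1 to 4 of the 9. Between IS and caput/corpus 571 genes and 0 of the 9 were called, 120 genes higher in IS. DESeq2 called 1268 genes (466 higher and 802 lower in IS) and 1 of the 9, the fit with no title series 233 genes, the fit of the 2 regions alone 914, and limma on log2(RPKM + 1) 934. The 8 undisputed libraries gave 954 genes and 3 of the 9, and Maj4 alone 1 of the 9. The count files as filed and Maj3 alone each gave 0 genes by edgeR, with 1166 and 404 at an unadjusted p under 0.05. Leaving out 1 library gave 234 to 1353 genes and 0 to 2 of the 9. Between caput/corpus and cauda 93 genes and 1 of the 9 were called, 88 genes higher in caput/corpus. DESeq2 called 632 genes (514 higher and 118 lower in caput/corpus), no filter 184, limma 143 with a pseudocount of 1 and 188 with 0.1. The replicate block gave 41 genes, the 2 regions alone 8, the 8 undisputed libraries 52, the count files as filed 0, Maj4 alone 28 and Maj3 alone 5. The last 6 of these settings, and the fit with no title series, called 0 of the 9. Leaving out 1 library gave 29 to 205 genes and 0 to 1 of the 9. The cause of these changes was not tested. Fewer libraries entered some fits, and the count files as filed place reads of some columns under another region than the columns do.

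Signs turned in these cases, given as log2 fold changes. For IS against caput/corpus, Maj3 alone gave Il1a -0.038 and Icam1 -0.092, and the count files as filed gave Tnf 0.83 and Tnfaip3 0.17. For IS against cauda, the count files as filed gave Tnf 1.06, Il1b 0.53, Nfkbia 0.44, Tnfaip3 0.36, Lif 0.18 and Zfp36 0.16, and Maj4 alone gave Il1b 0.022. For caput/corpus against cauda, Il1a gave -0.058 with the 8 undisputed libraries and -0.0032 with Maj4 alone, and Maj3 alone gave Il1b -0.31 and Il1rn -0.61. Without 1 library Tnf in that comparison lay between -0.22 and 0.080, turning to 0.080 without caput/corpus replicate 1, 0.06 without caput/corpus replicate 2 and 0.03 without cauda replicate 1, and it was 0.048 with the 8 undisputed libraries, 0.24 with the count files as filed and 0.18 with Maj4 alone.

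Libraries of the same series and number deviated together with correlations of -0.01 to 0.39 (10 pairs, 9 over 0.1). Those of the same series and another number did so with 0.02 to 0.18 (10 pairs, 6 over 0.1). The highest were 0.39 for IS replicate 2 with caput/corpus replicate 1, and 0.29 and 0.28 for these in turn with cauda replicate 2. All of these libraries carry number 2 in Maj3. The main fit did not pair libraries by number, and whether a number marks shared material was not tested. With the replicate block, Il1rn for IS against cauda was -1.21 (edgeR adjusted p = 0.0807) and Icam1 for caput/corpus against cauda 0.64 (adjusted p = 0.117), both no longer called.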
